A study of Mus musculus with 36 samples.

Results

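Liver levels of 10 genes of triglyceride synthesis were compared over 36 mice. The set holds Gpam, Agpat2, the lipins Lpin1, Lpin2 and Lpin3, Dgat1, Dgat2, Mogat1, Mogat2 and Cd36. The genes were taken by symbol, and all 10 were found among the 24421 genes of the count tables. Male C57BL/6J mice, 7 weeks old at purchase, were fed the CDAHFD for 12 weeks, a fat-rich diet without choline used to model steatohepatitis (NASH) in mice. The mice were then split by diet and by protein. Under a high-fat diet with choline (HFD), 10 mice received Fc (4.3 mg/kg) and 10 received Fc(mML1)B3 (5 mg/kg), once a week over 2 weeks. On a standard diet, Fc was given to 9 mice and Fc(mML1)B3 to 7 in the same amounts on days 1, 4 and 7, and their livers were collected after 10 days. Fc(mML1)B3 is an Fc protein with grafted macrocyclic peptides that bind and activate Met, the receptor of hepatocyte growth factor, and Fc is the same carrier without the peptide. All 4 groups therefore share the CDAHFD period, and no group was without an injected protein. The diet goes together with experiment, schedule and duration, so these cannot be told apart.

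Triglyceride is built in the liver by adding acyl chains to a glycerol backbone. Gpam puts the first chain on glycerol 3-phosphate, Agpat2 adds the next to make phosphatidate, the lipins remove the phosphate to leave diacylglycerol, and Dgat1 and Dgat2 add the last chain. Mogat1 and Mogat2 reach diacylglycerol from monoacylglycerol instead, a route best known from the intestine, and Cd36 takes up fatty acids at the cell surface. Lpin1 also acts in the nucleus as a coactivator of genes of fatty acid oxidation, and its RNA in liver is known to rise in fasting.

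The sequences before the start sites of Agpat2, Lpin1 and Lpin2 are shown as examples of genes that differed between groups or mice under the HFD, where clock gene levels also differed. Lpin3, which fell by a like amount to Lpin2, and Gpam, which also varied between mice, are not printed. Each is the 250 bases before a RefSeq start on GRCm38.p6, read 5′ to 3′ on the strand of the gene. The stretches lie at chr2:26604418-26604667 on the minus strand (Agpat2), chr12:16610967-16611216 on the minus strand (Lpin1) and chr17:71183282-71183531 on the plus strand (Lpin2). Capitals mark CACGTG, the E-box bound by the Arntl and Clock proteins, TTANGTAA, a form of the D-box bound by the Dbp protein, or AGGTCA, a half-site of nuclear receptors, on either strand.
Agpat2: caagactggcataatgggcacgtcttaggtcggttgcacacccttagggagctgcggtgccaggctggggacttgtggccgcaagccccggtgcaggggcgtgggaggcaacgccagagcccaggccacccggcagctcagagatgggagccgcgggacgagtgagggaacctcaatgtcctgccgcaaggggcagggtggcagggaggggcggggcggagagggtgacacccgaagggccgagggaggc
Lpin1: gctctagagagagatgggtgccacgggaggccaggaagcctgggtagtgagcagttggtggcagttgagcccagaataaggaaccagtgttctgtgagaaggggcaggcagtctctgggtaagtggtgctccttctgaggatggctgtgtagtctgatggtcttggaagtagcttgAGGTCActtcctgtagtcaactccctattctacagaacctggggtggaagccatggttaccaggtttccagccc
Lpin2: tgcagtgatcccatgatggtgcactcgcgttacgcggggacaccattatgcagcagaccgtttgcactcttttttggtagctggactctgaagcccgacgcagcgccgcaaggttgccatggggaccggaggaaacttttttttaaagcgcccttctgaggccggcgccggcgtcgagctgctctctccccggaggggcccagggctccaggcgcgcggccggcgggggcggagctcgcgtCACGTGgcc
Of the 7 members with such a sequence, which have 11 starts in all, only Lpin2 held CACGTG, from base -9 to -4 before its start. AGGTCA stood in Lpin1, from base -74 to -69, in Gpam and in Cd36, and TTANGTAA in none of the 11 stretches. Over 32851 promoters of the same length, 6.02% held CACGTG, 14% AGGTCA and 2.06% TTANGTAA. The Lpin1 start shown lies upstream of the gene model used for counting, which covers bases 16535669 to 16589770 of chromosome 12. The Lpin2 start is 1 of 3 listed and also lies before the counted model, which begins at base 71183978 of chromosome 17. The stretch before the start of the counted model, and that before the third start, held no CACGTG. The Agpat2 start is that of the counted model, on chromosome 2 from 26593057 to 26604417. No member shared exonic bases with another gene of the counting annotation.

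Total counts ranged from 14949035 to 28466853 reads per library, and each library was a separate mouse. The 10 hepatocyte markers summed to 77700 to 160900 CPM, against at most 1579 for the macrophage, 1509 for the stellate and 504 for the endothelial markers. Between Fc(mML1)B3 and Fc, no macrophage or endothelial marker was called in either diet, while the hepatocyte marker Hnf4a rose under the HFD (0.37, adjusted p = 0.0208) and, under the standard diet, Cps1 rose (0.19, adjusted p = 0.0313) and Fgb fell (-0.43, adjusted p = 0.02) among the hepatocyte markers and 2 of 8 stellate markers fell. Of 6 enterocyte markers, of which 3 were tested, Apoa4 rose under the standard diet, with medians of 203 CPM in Fc mice and 256.5 CPM in Fc(mML1)B3 mice. None was called under the HFD, and the effect on Apoa4 was called larger under the standard diet. Its part in the Mogat2 results given further on was not tested. Of 5 adipocyte markers, Adipoq, Plin1, Lep and Retn did not exceed 0.53 CPM in any library, and Lep was at 0 in all. The fifth, Cfd, had 0.0619 to 5.23 CPM in Fc mice and 0.980 to 6.09 CPM in Fc(mML1)B3 mice of the HFD, with medians of 1.62 and 3.39, and 0.662 to 1.84 CPM on the standard diet. It did not pass the test in either diet, and its part in the Agpat2 result given further on was not tested. The clock genes separated the groups under the HFD. Arntl, a core activator of the clock, had 0.619 to 2.09 CPM in Fc mice and 6.68 to 28.7 CPM in Fc(mML1)B3 mice. Dbp, a clock output gene, had 72.4 to 132.4 CPM in Fc mice and 3.13 to 25.2 CPM in Fc(mML1)B3 mice. The clock score, the mean log2 level of Arntl, Cry1, Nfil3 and Clock minus that of Dbp, Nr1d1, Nr1d2 and Tef, was -4.50 to -3.03 in Fc mice and -1.15 to 1.74 in Fc(mML1)B3 mice under the HFD. Under the standard diet it was -3.62 to -2.29 and -3.75 to -2.45, so that these groups overlapped. Single clock genes nonetheless differed there and in opposite directions within the score. Nr1d1 fell (-1.68, adjusted p = 3.6e-07; 102 to 159 CPM against 27.4 to 63.9), Clock fell (-0.69, adjusted p = 3.85e-06) and Arntl fell (-1.05, adjusted p = 0.0108), while Cry1 (1.16, adjusted p = 3.22e-05) and Tef (0.44, adjusted p = 0.00419) rose. The part of these differences in the results under the standard diet was not tested. The part of the clock difference in the results under the HFD was not tested, since no Fc mouse had the score of any Fc(mML1)B3 mouse.

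Per length, Dgat2 was the most abundant member, and the Mogat genes were the least. Medians over the 36 libraries, in CPM per kb of exon, were 220.5 for Dgat2, 127 for Agpat2, 57.6 for Cd36, 39.1 for Lpin2, 27.1 for Gpam, 20.04 for Lpin1, 11.9 for Dgat1, 1.41 for Lpin3, 0.852 for Mogat1 and 0.479 for Mogat2. Dgat2 was above Agpat2 in 35 of 36 mice, Agpat2 above Cd36 in 36, and Dgat1 above Lpin3 in 36. Gpam and Lpin1 did not keep an order, with Gpam the higher in 20 of 36. Of the lipins, Lpin2 had the highest median and Lpin3 was far below Lpin1 and Lpin2. Lpin1 was above Lpin2 in some Fc(mML1)B3 mice of the HFD, such as mouse 1, with 358 against 183 CPM. Lpin3 rested on 35 to 193 reads per library, Mogat1 on 4 to 52 and Mogat2 on 2 to 59, while every other member had at least 276.

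**Figure D1:**
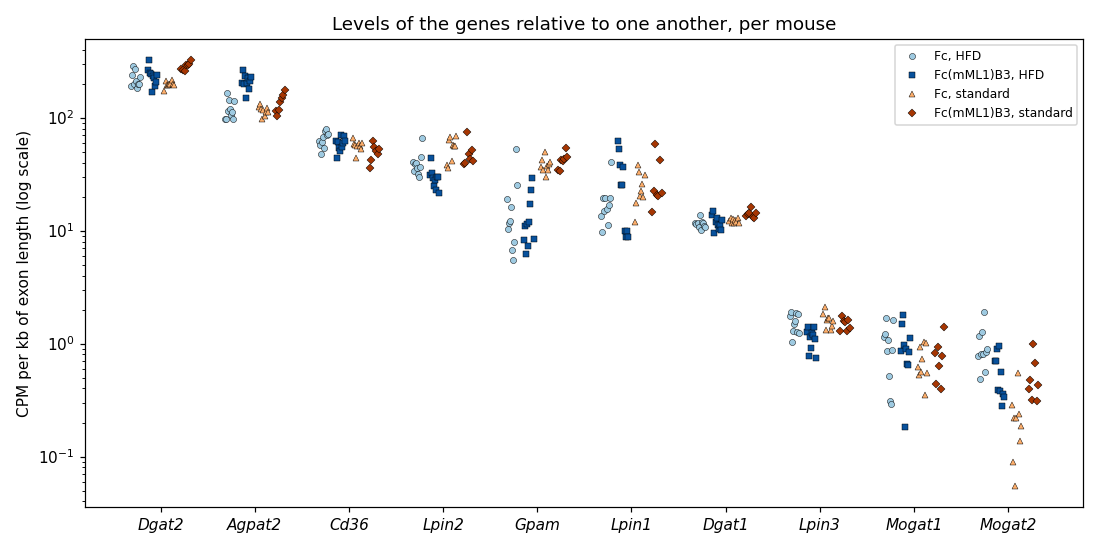
Level of each gene in CPM per kb of exon length (log scale) in each of the 36 mice, with genes ordered by their median and the 4 groups side by side. Dgat2 and Agpat2 are at the top, with medians of 220.5 and 127, and Lpin3, Mogat1 and Mogat2 lie below all other genes, with medians of 1.41, 0.852 and 0.479.

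The first comparison asked how Fc(mML1)B3 changed these genes under the HFD. Agpat2 rose, Lpin2 and Lpin3 fell, and the other 7 members did not pass the test. A gene was called at an adjusted p below 0.05 in edgeR's quasi-likelihood test. The 3 of 10 members called stand beside 14.8% of the 13299 genes tested, the 1 higher beside 8.14% and the 2 lower beside 6.68%. For none of the members were the groups without overlap, beside 0.962% of all genes. The median log2 fold change of the members was -0.08, and that of all genes -0.01. In these bulk samples, fewer cells of a type and less RNA per cell cannot be told apart.

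Agpat2, whose loss causes a congenital lipodystrophy, had 152, 178 and 259.9 CPM as the lowest, median and highest values of Fc mice under the HFD. In Fc(mML1)B3 mice they were 236, 325 and 414 CPM. All 10 Fc(mML1)B3 mice lay above the Fc median and 9 lay above every Fc mouse, and the groups overlapped. The rise was 1.75-fold, with a log2 fold change of 0.81 (SE, the standard error, 0.11; adjusted p = 2.21e-05). The permutation test of the mean log2 level gave p = 4e-05 (n = 10 and 10). The rise was present with either series of Fc(mML1)B3 libraries, as numbered in the file names. It was 0.92 with the 4 libraries of the first series (adjusted p = 0.00121) and 0.74 with the 6 of the second (adjusted p = 0.000653). Both were set against the same 10 Fc libraries, so these fits share their controls and do not compare within a series.

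Gpam, the mitochondrial enzyme of the step before Agpat2, varied strongly between mice under the HFD. Fc mice had 20.8, 45.3 and 200.4 CPM as lowest, median and highest, and Fc(mML1)B3 mice 23.6, 42.7 and 111. No Fc(mML1)B3 mouse lay outside the range of the Fc mice. Its log2 fold change came to -0.32 (SE 0.35, adjusted p = 0.578), and it became 0.06 without Fc mouse 9, the mouse at 200.4 CPM.

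The 3 lipins did not move as a group. Lpin2, with the highest median of the 3, had 175, 219.8 and 385 CPM in Fc mice and 125, 173 and 255 CPM in Fc(mML1)B3 mice. Below the Fc median were 9 of the 10 treated mice, and 6 were below every Fc mouse. Lpin2 fell by 0.43 on the log2 scale (SE 0.13, adjusted p = 0.0276; permutation test, p = 0.00431). The call was lost without Fc mouse 10 or Fc(mML1)B3 mouse 7 or 10, with an adjusted p of up to 0.0603. With the 4 libraries of the first series it was also lost (log2 fold change -0.20, adjusted p = 0.448), and with the 6 of the second it held (-0.59, adjusted p = 0.0101).

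Lpin3 had 3.62, 5.40 and 6.70 CPM in Fc mice and 2.60, 4.12 and 4.98 CPM in Fc(mML1)B3 mice. Each of the 10 treated mice was below the Fc median, and the groups overlapped. Lpin3 fell by 0.44 on the log2 scale (SE 0.14, adjusted p = 0.0388; permutation test, p = 0.0059). Of the 20 fits that left out a library, 10 kept the call, and the adjusted p reached 0.0782 in the others. The call was also lost with the first series (-0.39, adjusted p = 0.194), with the second (-0.46, adjusted p = 0.0701) and with no filter on low counts (adjusted p = 0.0563).

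Lpin1 differed widely between mice of 1 group. The 10 Fc(mML1)B3 mice under the HFD had 358, 302, 216, 144, 146, 208, 56.2, 50.3, 56.7 and 49.9 CPM, for mouse 1 to mouse 10. The Fc mice had 55.2, 92.6 and 232 CPM as lowest, median and highest. Mice 1 and 2 lay above every Fc mouse, mice 8 and 10 below every Fc mouse, and the other 6 within the Fc range. With a log2 fold change of 0.62 (SE 0.34, adjusted p = 0.229), Lpin1 did not pass the test. The 4 libraries of the first series had 144 to 358 CPM and gave a log2 fold change of 1.31 (SE 0.28, adjusted p = 0.0118). The 6 of the second series had 49.9 to 207.5 CPM and gave -0.12 (SE 0.33, adjusted p = 0.862). The series, the mice and the clock score go together here and cannot be told apart.

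Dgat1 and Dgat2, which close the route, were at like levels in the HFD groups. Dgat2 had 408, 460.2 and 647 CPM in Fc mice and 376, 534 and 725 CPM in Fc(mML1)B3 mice. The ranges overlapped widely, and the log2 fold change was 0.09 (SE 0.11, adjusted p = 0.598). Dgat1 had medians of 20.2 and 20.4 CPM and a log2 fold change of 0.05 (SE 0.08, adjusted p = 0.718). Cd36 had medians of 255 and 235.5 CPM and a log2 fold change of -0.14 (SE 0.09, adjusted p = 0.323).

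The monoacylglycerol route was weakly expressed. Mogat2 had 0.852, 1.46 and 3.34 CPM in Fc mice and 0.497, 0.839 and 1.69 CPM in Fc(mML1)B3 mice, from 8 to 59 reads. Below the Fc median were 8 of the 10 treated mice, and 5 were below every Fc mouse. The log2 fold change was -0.74 (SE 0.26, adjusted p = 0.0602), just outside the threshold, while DESeq2 and limma-voom called it (adjusted p = 0.0407 and 0.0184). Mogat1 had medians of 1.17 and 1.06 CPM and a log2 fold change of -0.02 (SE 0.33, adjusted p = 0.97). Its confidence interval ran from -0.66 to 0.61, so that a change within these bounds could have been missed.

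**Figure D2:**
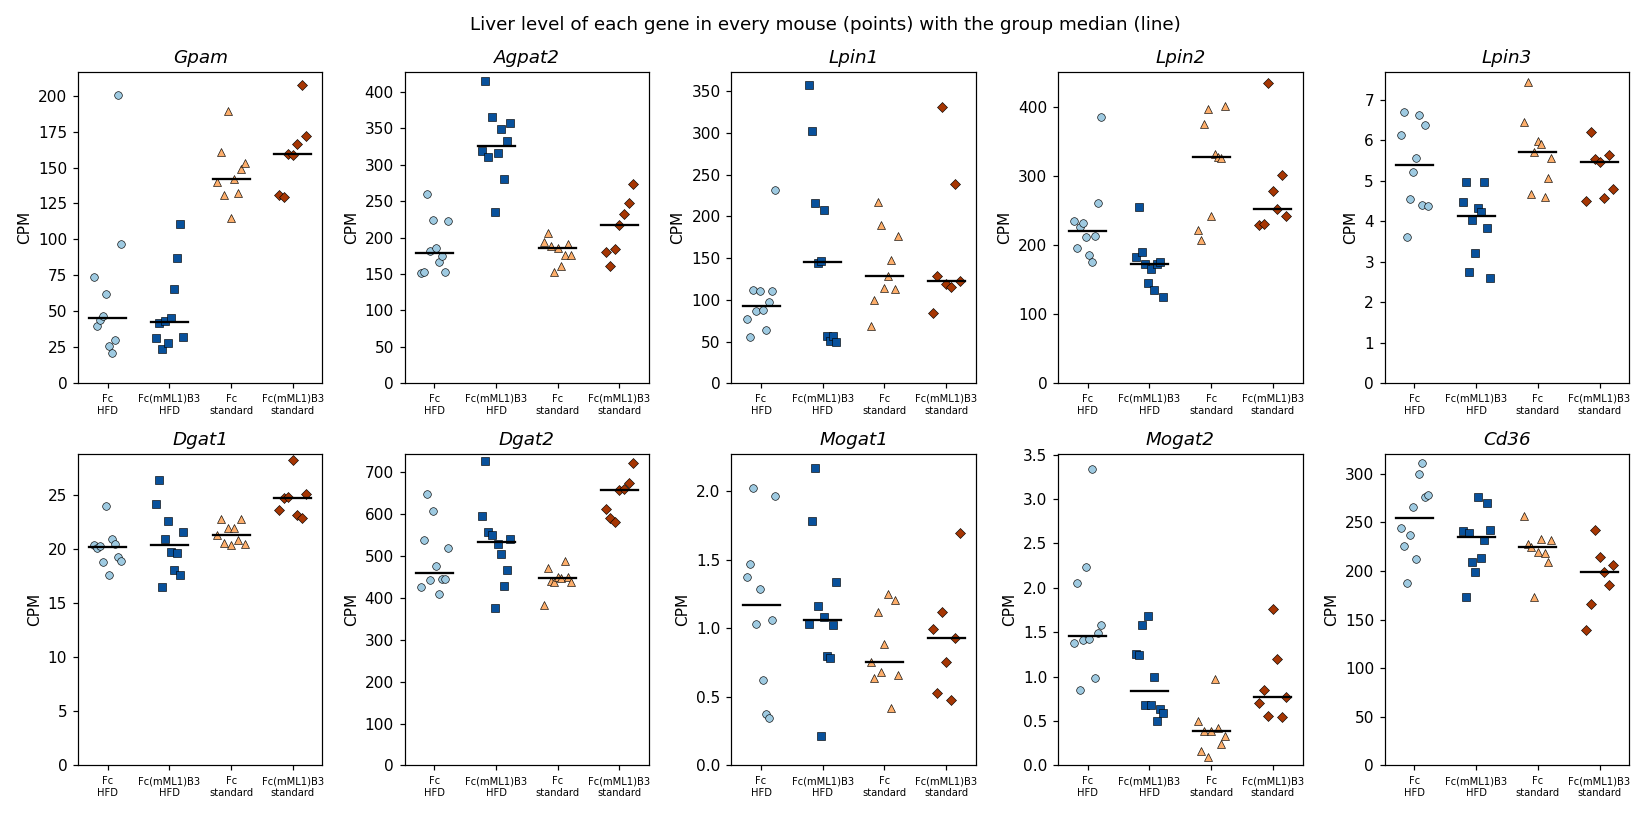
Level of each gene in CPM (vertical axis, from 0) for every mouse of the 4 groups, with the group median as a line. Agpat2 is raised in Fc(mML1)B3 mice under the HFD (median 325 against 178 CPM), Dgat2 in Fc(mML1)B3 mice on the standard diet (656 against 447 CPM), and Lpin1 spreads from 49.9 to 358 CPM within the Fc(mML1)B3 mice of the HFD.

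Under the standard diet, Dgat2 and Dgat1, of the last step, and Mogat2, of the monoacylglycerol route, rose, no member fell, and 7 of 10 did not pass the test. The 3 called members stand beside 16.1% of 13570 genes tested, of which 8.56% were called higher and 7.55% lower. The median log2 fold change of the members was 0.17, and that of all genes -0.01.

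Dgat2, the diacylglycerol acyltransferase of the endoplasmic reticulum and lipid droplets, had 384, 447 and 488 CPM in Fc mice. In Fc(mML1)B3 mice it had 580.1, 656 and 722 CPM. The groups did not overlap. Dgat2 rose by 0.53 on the log2 scale (SE 0.05, adjusted p = 1.33e-06), which is 1.44-fold. The exact permutation test gave p = 8.74e-05, the smallest that 9 against 7 mice allow. The groups of Dgat1, the other acyltransferase, also did not overlap, with 20.4, 21.3 and 22.83 CPM against 22.85, 24.7 and 28.2 CPM. Its rise was small, 0.20 on the log2 scale (SE 0.05, adjusted p = 0.00915; exact permutation test, p = 0.000175). Of all genes tested, 2.9% had groups that did not overlap. All 7 Fc(mML1)B3 libraries and 4 of the 9 Fc libraries of this diet share 1 series of numbers, so protein goes in part with series. With that series only, 4 against 7 mice, the log2 fold change of Dgat1 was 0.19 and the call was lost (adjusted p = 0.0984).

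Mogat2 had 0.097, 0.39 and 0.977 CPM in Fc mice and 0.548, 0.767 and 1.76 CPM in Fc(mML1)B3 mice on the standard diet. All 7 Fc(mML1)B3 mice lay above the Fc median and 2 lay above every Fc mouse. Mogat2 rose by 1.18 on the log2 scale (SE 0.35, adjusted p = 0.0255; exact permutation test, p = 0.00393), from 2 to 42 reads per library. The call was lost with 1 series of library numbers (log2 fold change 0.87, adjusted p = 0.239) and without Fc(mML1)B3 mouse 4 or 5 (adjusted p of up to 0.0775). With counts halved, since each end of a pair was counted, Mogat2 did not pass the filter for low counts.

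Agpat2 had 152, 185 and 206 CPM in Fc mice and 162, 217 and 274 CPM in Fc(mML1)B3 mice on the standard diet. The groups overlapped, and 4 of 7 Fc(mML1)B3 mice lay above every Fc mouse. The log2 fold change of 0.24 (SE 0.09) did not pass the test (adjusted p = 0.0863; exact permutation test, p = 0.0537). With the clock score as a covariate it was 0.19 and passed (adjusted p = 0.0444). Gpam (0.14, adjusted p = 0.371), Lpin1 (0.22, adjusted p = 0.608), Lpin2 (-0.16, adjusted p = 0.511), Lpin3 (-0.12, adjusted p = 0.488), Mogat1 (0.12, adjusted p = 0.798) and Cd36 (-0.20, adjusted p = 0.156) did not pass it either, as log2 fold changes. Lpin1 again spread widely, from 83.8 to 332 CPM in Fc(mML1)B3 mice, and its log2 fold change was -0.06 without Fc(mML1)B3 mouse 3.

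**Figure D3:**
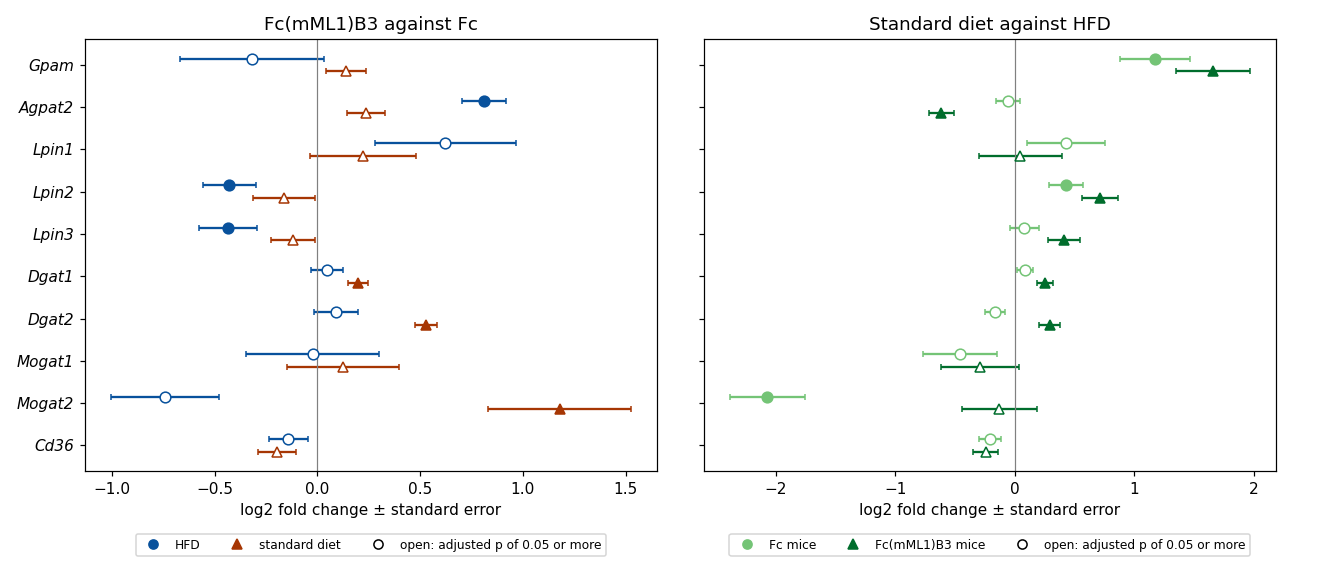
Log2 fold changes with standard errors (horizontal axis) for the 10 genes, Fc(mML1)B3 against Fc under each diet on the left and the standard diet against the HFD in each protein group on the right. Filled symbols passed an adjusted p below 0.05. Agpat2 is filled under the HFD (0.81) and Dgat2 under the standard diet (0.53), and Gpam is filled on the right in both protein groups (1.17 and 1.66).

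An interaction term, fitted to the 36 libraries, asked whether the diets gave unequal responses to Fc(mML1)B3. They did for Agpat2, Dgat2 and Mogat2, which is 3 of 10 members, beside 9.06% of 14105 genes. The difference was positive for 2 members (4.66% of all genes) and negative for 1 (4.4%). The effect on Agpat2 was smaller under the standard diet by 0.56 on the log2 scale, that is -0.56 (SE 0.15, adjusted p = 0.0107). The effect on Dgat2 was larger under the standard diet by 0.45 (SE 0.12, adjusted p = 0.0149), and that on Mogat2 by 1.94 (SE 0.44, adjusted p = 0.00293). Mogat2 was the only member with estimates of opposite sign beyond their standard errors, -0.74 and 1.18. For Lpin2 the difference was 0.28 (SE 0.21, adjusted p = 0.491) and for Lpin3 0.33 (SE 0.18, adjusted p = 0.3), so that their fall under the HFD was not shown to be particular to that diet.

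The last comparisons set the standard diet against the HFD within each protein. Among Fc mice, Gpam and Lpin2 were higher and Mogat2 lower under the standard diet, 3 of 10 members beside 47.9% of 14105 genes called, with 23.3% higher and 24.6% lower. No member had groups without overlap there, beside 9.61% of all genes. Among Fc(mML1)B3 mice, Gpam, Lpin2, Lpin3, Dgat1 and Dgat2 were higher and Agpat2 lower, 6 of 10 beside 38.5%, with 20.7% higher and 17.9% lower. These shares of all genes are large, and the diets were run as separate experiments. Cell type markers moved with the diet as well. In Fc mice 4 of 10 hepatocyte markers were higher on the standard diet, Cps1 among them (0.79, adjusted p = 1.43e-07), and 4 of 10 macrophage markers, such as Cd68 (-0.75, adjusted p = 0.000157), and 5 of 8 stellate markers, such as Col1a1 (-1.18, adjusted p = 1.64e-05), were lower. In Fc(mML1)B3 mice 2 macrophage and 4 stellate markers were lower, and of the hepatocyte markers Apob (0.38, adjusted p = 0.000582) and Cps1 (0.70, adjusted p = 4.33e-06) were higher and Hpx lower (-0.51, adjusted p = 0.0324). Of 9 endothelial markers, Eng was lower (-0.61 in Fc mice, adjusted p = 3.7e-11, and -0.54 in Fc(mML1)B3 mice, adjusted p = 3.81e-09) and Kdr higher (0.23, adjusted p = 0.0232, and 0.30, adjusted p = 0.0076). Cfd, the only adipocyte marker tested, was lower in Fc(mML1)B3 mice (-1.66) and was not called in Fc mice. The enterocyte markers Apoa4 and Fabp2 were lower in both proteins. The part of all these markers in the member differences was not tested.

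Gpam was higher on the standard diet in both protein groups. On the standard diet, Fc mice ranged from 115 to 189.6 CPM, and their median per length was 37.1 CPM per kb, against 11.8 in Fc mice of the HFD. The Fc(mML1)B3 mice had 129.8, 159.7 and 207 CPM as lowest, median and highest. Among the Fc mice, 9 of 9 lay above the HFD median, and the groups overlapped through Fc mouse 9 of the HFD. Among the Fc(mML1)B3 mice the diets did not overlap, as for 9.76% of all genes. Gpam was 2.26-fold higher in Fc mice (log2 fold change 1.17, SE 0.29, adjusted p = 0.00119) and 3.15-fold higher in Fc(mML1)B3 mice (1.66, SE 0.31, adjusted p = 5.42e-05).

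Lpin2 had medians of 328 CPM in Fc mice and 252.5 CPM in Fc(mML1)B3 mice on the standard diet, against 219.8 and 173 CPM under the HFD. It was higher by 0.43 on the log2 scale in Fc mice (SE 0.14, adjusted p = 0.0126) and by 0.71 in Fc(mML1)B3 mice (SE 0.15, adjusted p = 0.000276). Lpin3 was higher in Fc(mML1)B3 mice (0.41, SE 0.13, adjusted p = 0.0132). In Fc mice its log2 fold change was 0.08 (SE 0.12, adjusted p = 0.618).

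Mogat2 was lower by 2.07 on the log2 scale in Fc mice under the standard diet, that is -2.07 (SE 0.31, adjusted p = 1.48e-06). Its Fc levels were 0.852 to 3.34 CPM under the HFD and 0.097 to 0.977 CPM under the standard diet, with 9 of 9 mice below the HFD median. Of 6 enterocyte markers, only Fabp2, Vil1 and Apoa4 were above 1 CPM in the group medians, and Lct, Sis and Alpi did not exceed 0.532 CPM in any library. The summed marker level, nearly all of it Apoa4 and Fabp2, ran from 418 to 4601 CPM in Fc mice under the HFD and from 247 to 344 CPM under the standard diet. Its part in the Mogat2 difference was not tested. In Fc(mML1)B3 mice the log2 fold change of Mogat2 was -0.13 (SE 0.32, adjusted p = 0.771).

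Agpat2 was lower under the standard diet in Fc(mML1)B3 mice (-0.61, SE 0.11, adjusted p = 2.26e-05), with 7 of 7 below the HFD median, and did not pass the test in Fc mice (-0.06, SE 0.10, adjusted p = 0.662). Dgat2 was higher in Fc(mML1)B3 mice (0.29, SE 0.09, adjusted p = 0.0104), and its value in Fc mice was -0.16 (adjusted p = 0.111), which with upper-quartile factors was -0.25 and called (adjusted p = 0.0121). Dgat1 was higher by 0.25 in Fc(mML1)B3 mice (adjusted p = 0.00405). With upper-quartile factors the calls of Dgat1 and Dgat2 in Fc(mML1)B3 mice were lost (adjusted p = 0.0621 and 0.0589). Cd36 was close to the threshold in both proteins, at -0.21 in Fc mice (adjusted p = 0.0685) and -0.24 in Fc(mML1)B3 mice (adjusted p = 0.0555), and the calls depended on the setting. The value in Fc(mML1)B3 mice passed with DESeq2 (adjusted p = 0.0261), RLE factors (0.0342), upper-quartile factors (0.00993), limma-voom (0.0178) and halved counts (0.0379), and that in Fc mice with upper-quartile factors (0.0108) and with the clock score as a covariate (0.0123).

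Levels were also set against the clock score, within groups. Over 36 mice with group means removed, Pearson's r was -0.469 for Lpin1 (permutation p = 0.0266; Spearman's rho = -0.352, p = 0.0753), -0.414 for Mogat2 (p = 0.0168; rho = -0.434, p = 0.0139), 0.412 for Cd36 (p = 0.0147) and 0.376 for Agpat2 (p = 0.029). Adjusted over 50 relations, p was 0.145 for Lpin1 and Agpat2 and 0.105 for Mogat2 and Cd36. Without the 2 mice farthest from the median score, r was -0.280 for Lpin1, so that its relation rested on those mice, -0.384 for Mogat2, 0.415 for Cd36 and 0.584 for Agpat2. None of the 10 members passed the test of the slope across 14105 genes, of which 2.01% did (1.28% with a positive and 0.723% with a negative slope), and adjusted p was 0.148 for Lpin1 and 0.247 for Agpat2. At an unadjusted p below 0.05 the slopes of Agpat2, Lpin1, Dgat1, Mogat2 and Cd36 passed, 5 of 10 members beside 14.9% of all genes.

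Within single groups, 50 relations were computed together with those over all mice. In the 7 Fc(mML1)B3 mice of the standard diet, Agpat2 rose with the score, with r = 0.983 and rho = 1 (exact permutation p = 0.000397 for each, adjusted p = 0.0198), and r was 0.986 without the 2 mice farthest from the median score. Gpam (r = 0.869, exact permutation p = 0.00774, adjusted p = 0.0952) and Dgat2 (r = 0.902, p = 0.00952, adjusted p = 0.0952) had r of the same sign there. In the 9 Fc mice of this diet, r was 0.170 for Gpam and -0.708 for Dgat2 (exact permutation p = 0.0441, adjusted p = 0.2). The scores of the 7 Fc(mML1)B3 mice also followed their library numbers, except that mouse 2 was below mouse 1, so that score and library number cannot be told apart. For Lpin1, r was 0.457 in the Fc mice of the HFD and 0.141 in the Fc(mML1)B3 mice of the standard diet. In the Fc mice of the standard diet it was -0.451, and 0.742 without the 2 mice farthest from the median score. In the 10 Fc(mML1)B3 mice of the HFD, Lpin1 fell with the score, with r = -0.841 (permutation p = 0.00424, adjusted p = 0.0952) and rho = -0.855 (p = 0.00269, adjusted p = 0.0473). Without the 2 mice farthest from the median score its r was -0.687. The 4 mice at 49.9 to 56.7 CPM had scores of 0.984 to 1.74, but mouse 6 had 208 CPM at a score of 1.20, and the mice at 358 and 302 CPM had the lowest scores of the group, -1.15 and -0.837. Within the 6 mice of the second series r was -0.537 (exact permutation p = 0.246), and 4 mice were too few for the first. Mogat2 in the same 10 mice had r = -0.809 (permutation p = 0.00751, adjusted p = 0.0952) and rho = -0.855 (p = 0.00284, adjusted p = 0.0473), and r = -0.926 within the second series (n = 6, exact permutation p = 0.0167; rho = -0.829, p = 0.0583). Agpat2 had r = 0.0357 in those 10 mice, 0.565 without the 2 mice farthest from the median score, and 0.840 within the second series (n = 6, exact permutation p = 0.0556; rho = 0.600, p = 0.242). Mogat1 had r = 0.974 within that series (exact permutation p = 0.0111; rho = 0.714, p = 0.136). Of these 6 mice, mouse 5 stood apart at a score of -0.324, and the others had 0.984 to 1.74. The p within the series were not adjusted over the 10 members.

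**Figure D4:**
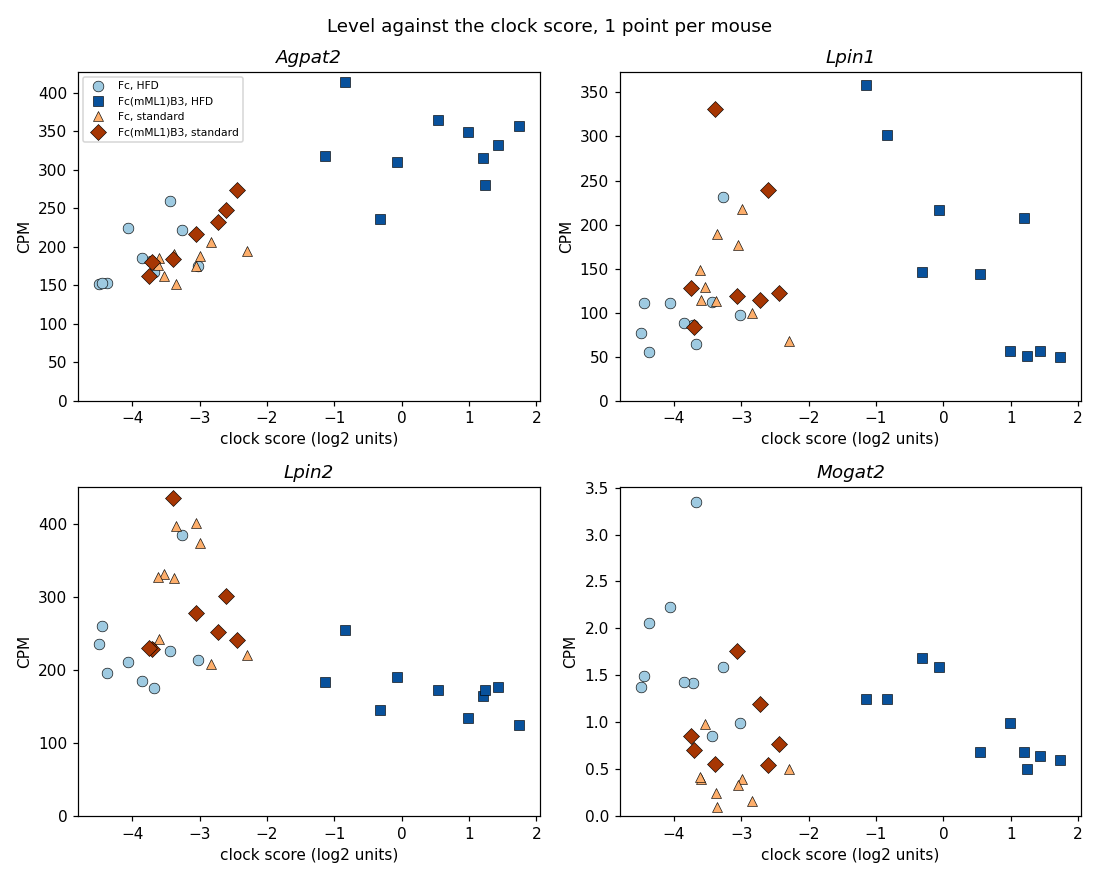
Level in CPM (vertical axis, from 0) of Agpat2, Lpin1, Lpin2 and Mogat2 against the clock score in log2 units (horizontal axis), with 1 point per mouse and symbols for the 4 groups. The Fc(mML1)B3 mice of the HFD stand apart on the score, from -1.15 to 1.74, and within them Lpin1 runs from 358 CPM at the lowest score to 49.9 CPM at the highest.

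The members were then compared with one another over the 36 mice, again with group means removed. Of 45 pairs, 3 passed an adjusted p below 0.05 for Pearson's r, and for Spearman's rho the last of them missed it (adjusted p = 0.0502). Lpin1 and Lpin2 went together (r = 0.718, rho = 0.693), as did Agpat2 and Dgat2 (r = 0.718, rho = 0.621) and Dgat2 and Mogat1 (r = 0.608, rho = 0.515). The permutation p was 1e-05 for r in the first 2 pairs, the smallest that 100000 resamples can give (adjusted p = 0.000225), and 0.00079 in the third (adjusted p = 0.0118). Without the 2 mice farthest from the median of the gene named first, r was 0.713, 0.606 and 0.484. The pattern across mice most like each member, among 14104 genes, was that of Sntb1 for Gpam (r = 0.898), Mrap for Agpat2 (r = 0.850), Foxo1 for Lpin1 (r = 0.794), Mknk2 for Lpin2 (r = 0.745) and Nlrx1 for Lpin3 (r = 0.747). For the others it was Ptdss2 for Dgat1 (r = 0.656), Fkbp8 for Dgat2 (r = 0.903), Cyb5r3 for Mogat1 (r = 0.770) and Gja5 for Cd36 (r = 0.694). Next came Kpnb1 for Gpam (r = 0.880), Slc25a5 for Agpat2 (r = 0.798), Gin1 for Lpin1 (r = 0.784), Ndufv1 for Dgat2 (r = 0.902) and Lpin1 itself for Lpin2. Next for the rest were Dctn1 for Lpin3 (r = 0.687), Ncaph2 for Dgat1 (r = 0.644), Pcca for Mogat1 (r = 0.763), Abcb10 for Mogat2 (r = -0.654) and Pex6 for Cd36 (r = -0.670). Abcb10 and Pex6 thus ran opposite to the member.

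Of 23 further enzymes of the glycerolipid route, 2 rose and 2 fell under the HFD, beside 14.8% of all genes called. Gpd1, which makes glycerol 3-phosphate, rose by 0.74 on the log2 scale (adjusted p = 0.000105) and Acsl1, which activates fatty acids, by 0.80 (adjusted p = 0.000472). Gpat2 (-0.66, adjusted p = 0.0155) and Lclat1 (-0.21, adjusted p = 0.0476) fell. Under the standard diet, 4 rose and 1 fell, beside 16.1% of all genes called. Agpat6 (Gpat4 in current naming), a microsomal glycerol-3-phosphate acyltransferase, rose by 0.45 (adjusted p = 5.67e-05), Agpat1 by 0.36 (adjusted p = 0.00195) and Acsl4 by 0.31 (adjusted p = 0.00421), while Ppap2a (Plpp1) fell by 0.33 (adjusted p = 0.0136). These enzymes had medians of -0.03 and 0.05 on the log2 scale in the 2 diets.

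Of 14 genes of the phospholipid branches that use diacylglycerol or phosphatidate, 2 rose and 2 fell under each diet, beside 14.8% and 16.1% of all genes called, and their medians were 0.09 and -0.04. Chka, a choline kinase, rose by 1.70 under the HFD (adjusted p = 9.55e-07) and fell by 0.61 under the standard diet (adjusted p = 0.00656). Ept1 (Selenoi), which makes phosphatidylethanolamine, rose by 0.50 (adjusted p = 0.00287) and fell by 0.37 (adjusted p = 0.00435). Pcyt1a, which makes CDP-choline, rose under the standard diet (0.33, adjusted p = 0.000407), as did Pemt (0.16, adjusted p = 0.0136). Cds2, which turns phosphatidate away from the lipins, fell under the HFD (-0.29, adjusted p = 0.000167), as did Pcyt1b (-0.88, adjusted p = 0.0172).

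Of 15 transcription factors and coactivators known to act on members, 3 fell under the HFD and none rose, beside 6.68% of all genes called lower and 8.14% higher, with a median of -0.06. They were Nr1h2 (LXR beta; -0.29, adjusted p = 0.00349), the coactivator Ppargc1b (-0.77, adjusted p = 0.0113) and Pparg, the nuclear receptor of adipogenesis and steatosis (-0.31, adjusted p = 0.0361). Under the standard diet 3 rose and none fell, beside 8.56% of all genes called higher and 7.55% lower, with a median of 0.14. They were Foxo1 (0.53, adjusted p = 3.02e-05), Nr1i3 (0.62, adjusted p = 5.22e-05) and Srebf1, the factor of lipogenesis in response to insulin (0.43, adjusted p = 0.00251). Srebf1, Foxo1 and Pparg also differed between the diets in the interaction test. Srebf1 shares exonic bases with Rai1 in the counting annotation, and Nr1i3 with Tomm40l. Of genes named in other paragraphs, so do Agpat1 with Egfl8, Ppap2a with Skiv2l2, Dbp with Sphk2 and Eng with Fpgs. In each case the other gene is on the opposite strand, and counting was without strand. Among Fc(mML1)B3 mice, 11 of the 15 were higher and 1 lower under the standard diet than under the HFD, beside 20.7% and 17.9% of all genes. Among Fc mice 5 were higher and 2 lower, beside 23.3% and 24.6%.

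Of 7 genes known as steatosis targets of PPAR gamma, 6 could be tested, with 2 called in the HFD comparison and 1 in that of the standard diet, beside 14.8% and 16.1% of all genes. Mgll, a monoacylglycerol lipase, rose under the HFD (0.59, adjusted p = 0.00125) and Aqp7, a glycerol channel, fell (-0.52, adjusted p = 0.0415). Under the standard diet Fabp4, a fatty acid binding protein also found in macrophages, fell (-0.30, adjusted p = 0.0264). The median of the 6 tested targets was 0.08 on the log2 scale for the HFD and -0.02 for the standard diet, beside -0.01 for all genes in both.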

How the data were processed

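Total liver RNA of 36 mice was sequenced as paired reads of 100 bases. The authors trimmed reads with Fastp, removed ribosomal RNA with Bowtie2 (2.4.5), aligned to mm10 with STAR (2.7.10a) and counted reads per gene with featureCounts (2.0.3). The deposited values are raw counts per gene. Both ends of a pair had to align and each end was counted, without strand and without reads of several alignments, so fragments count about 2 times and low counts look more precise than they are. Samples were grouped and numbered by their titles. From these counts, CPM were computed with TMM factors, and groups were compared with the quasi-likelihood test of edgeR 4.0.16 in R 4.3.3 over the genes kept by filterByExpr, each diet separately for Fc(mML1)B3 against Fc and all 36 libraries for the other comparisons. A gene was called at a Benjamini-Hochberg adjusted p below 0.05 over all genes tested, with no limit on the fold change. Standard errors are the log2 fold change over the square root of F. Single genes were also tested 2-sided on the mean of log2(CPM + 0.5), by exact permutation for the standard diet and by 100000 resamples for the HFD, 20 tests in all with no adjustment. In correlations, p comes from 100000 resamples within groups, or from all orders for groups under 10 mice, with Benjamini-Hochberg adjustment over the 50 relations or 45 pairs.

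Total counts were 14949035 to 28466853 per library, so low CPM rest on few reads. Over 147 pairs of libraries within groups, the lowest chi-square per degree of freedom was 6.305, so none was a duplicate. Symbols were matched through RefSeq synonyms, and promoters come from RefSeq (GRCm38.p6), which held 7 of the 10 members; Dgat1, Dgat2 and Mogat2 had no entry. All 10 members passed the filter in every comparison. All 10 members are named. Of the other lists, at most the 4 genes of smallest p among those called are named, and for each member the 2 genes of most similar pattern, of which 1 is not reported here. The members and lists were chosen with earlier results of these data known. The alternatives were DESeq2 1.42.0, limma-voom 3.58.1 with quality weights, RLE and upper-quartile factors, a filter at 0.5 CPM, no filter, the thresholds of the study, the clock score as a covariate, a replicate block, the series of library numbers and each library left out. Halved counts were added after seeing the data. The tests were first tested on simulated data.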

Additional observations from a re-analysis of the deposited data

Results flagged for a closer look

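In 40 checks of a member within a group, 9 values, from 8 mice, stood apart from the rest of their group, where chance flags about 1 in 20 groups. Under the HFD, Fc mouse 9 had 200.4 CPM of Gpam, and Fc mouse 10 had 232 CPM of Lpin1 and 385 CPM of Lpin2. Fc mouse 5 had 24.0 CPM of Dgat1, and Fc(mML1)B3 mouse 2 had 255 CPM of Lpin2. Under the standard diet, Fc(mML1)B3 mouse 3 had 435 CPM of Lpin2 and Fc(mML1)B3 mouse 4 had 28.2 CPM of Dgat1. Fc mouse 1 had 384 CPM of Dgat2, the lowest of its group, and Fc mouse 6 had 0.977 CPM of Mogat2.

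For 3 members the diets gave unequal responses to Fc(mML1)B3 in edgeR's interaction test. The difference, standard diet minus HFD, was -0.56 on the log2 scale for Agpat2 (adjusted p = 0.0107), 0.45 for Dgat2 (adjusted p = 0.0149) and 1.94 for Mogat2 (adjusted p = 0.00293).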

How the results depend on the processing

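Agpat2 under the HFD and Dgat2 under the standard diet kept direction and call in the alternatives run, with 2 exceptions. Neither reached the fold limits of the study, and Agpat2 was not called with the clock score as a covariate (0.54, adjusted p = 0.902). That fit called 0 genes of all 13299 under the HFD, since the scores of the groups do not overlap there, and is an extrapolation. It called 3 of all genes against 1278 in the difference and 1728 against 5434 between the diets in Fc(mML1)B3 mice. With it, 0 members were called under the HFD, 0 in the difference between the diets and 1 between the diets in Fc(mML1)B3 mice, while Agpat2 gained a call under the standard diet (0.188, adjusted p = 0.0444). Signs then turned under the HFD for Lpin3 (0.13), Mogat1 (0.496) and Mogat2 (1.16), in the difference between the diets for Lpin2 (-0.17), Lpin3 (-0.033), Dgat1 (-0.16), Mogat1 (-0.073) and Cd36 (0.51), and between the diets in Fc(mML1)B3 mice for Lpin1 (-1.45), Dgat1 (-0.024) and Cd36 (0.22).

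At the thresholds in the figure legends of the study, 0 members were called under the HFD (adjusted p below 0.1, 2-fold) and 1 under the standard diet (adjusted p below 0.05, 1.5-fold). The study reported no other comparison. With the 1.5-fold limit, 1 was called in the difference between the diets and 3 between the diets in Fc(mML1)B3 mice. With 1 series of library numbers, 1 was called under the standard diet. With only the 6 Fc(mML1)B3 libraries of the second series set against Fc under the HFD, Lpin1 was at -0.12, Dgat1 at -0.007 and Dgat2 at -0.057. With only the 4 of the first, Mogat1 was at 0.42. Over all genes, limma-voom called 3039 against 1972 under the HFD and 2026 against 1278 in the difference, while 1 series called 942 against 2186 under the standard diet and the first series 705 against 1972 under the HFD. Limma-voom turned Mogat1 to 0.013 for the HFD and -0.003 for the standard diet. Upper-quartile factors called 5 members between the diets in Fc mice and turned Lpin3 there to -0.006 and Lpin1 in Fc(mML1)B3 mice to -0.044. They also moved the share of higher calls among all genes from 54.9% to 44.6% under the HFD, and between the diets from 48.6% to 34.5% in Fc mice and from 53.6% to 36.8% in Fc(mML1)B3 mice.

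The labels state no link between mice of the same number in different groups. Their deviations correlated at -0.66 to 0.324 in the 10 pairs of the HFD and -0.182 to -0.0218 in the 7 of the standard diet. Such values cannot show whether these mice have anything in common besides the number. With a replicate block, 3 members were called between the diets in Fc(mML1)B3 mice, Lpin1 there was at -0.29 and Mogat1 under the HFD at 0.017. The block lost the calls of Lpin2 under the HFD (adjusted p = 0.0699), Mogat2 under the standard diet (0.164) and Agpat2 in the difference (0.0658), and those of Dgat1 (0.106), Dgat2 (0.134) and Lpin3 (0.0503) between the diets in Fc(mML1)B3 mice. It gained that of Lpin1 in Fc mice (0.00321). Calls over all genes under the block fell from 1972 to 1294 under the HFD, from 2186 to 1296 under the standard diet and from 1278 to 808 in the difference.

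With each library left out, 1 to 4 members were called under the HFD, 2 to 4 under the standard diet, 3 in every fit of the difference, and 3 to 4 and 6 to 7 between the diets in Fc and Fc(mML1)B3 mice. The lowest under the HFD came without Fc(mML1)B3 mouse 7 or 10. Ranges that crossed 0 were -0.52 to 0.06 for Gpam and -0.18 to 0.10 for Mogat1 under the HFD, -0.058 to 0.334 for Lpin1 and -0.087 to 0.236 for Mogat1 under the standard diet, and -0.052 to 0.329 for Mogat1 and -0.101 to 0.011 for Cd36 in the difference. Between the diets they were -0.085 to 0.011 for Agpat2 in Fc mice and -0.23 to 0.26 for Lpin1 in Fc(mML1)B3 mice. Where no construction shows it, the cause was not tested. Lpin3, Mogat1 and Mogat2 rested on the fewest reads of the members, and the part of this in their results was not tested.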
